A study of Mus musculus with 6 samples.

Results

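Protocadherins, the largest branch of the cadherin superfamily, were examined in bulk RNA-seq of mouse hippocampus. Members were the rows of the expression matrix whose gene symbol begins with Pcdh, and 64 of the 14477 listed genes met that rule. They fell into 53 clustered genes (11 Pcdha, 21 Pcdhb and 21 Pcdhg) and 11 non-clustered genes. The annotation used here holds 69 such symbols, and Pcdha4, Pcdha8, Pcdhb1, Pcdhgb8 and Pcdh12 were not analysed here. The study asked what depletion of PHF21B, a PHD-finger chromatin protein, does to gene expression in the hippocampus. It calls the mouse line a knockdown model, with PHF21B lowered rather than absent. It compared 3 untreated Phf21bΔ4/Δ4 mice (replicates 2, 3 and 6), homozygous for a CRISPR deletion in exon 4 carried in every tissue, with 3 untreated Phf21b+/+ littermates (replicates 5, 7 and 8). Both genotypes were on the C57BL/6J background. The study describes its animals as young adults of both sexes, and the sex and age of each sequenced mouse are not given. The RNA came from hippocampal tissue, with 1 library per mouse, so the p-values below measure the spread between mice.

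Protocadherins are transmembrane proteins with cadherin repeats outside the cell, and they bind like molecules on the neighbouring membrane. The clustered genes lie in tandem on 1 chromosome. Each Pcdha and Pcdhg gene has its own large first exon, with its own promoter, which is spliced to constant exons shared by its cluster, whereas Pcdhb genes are mostly contained in a single exon. Individual neurons use different sets of these promoters, a choice that involves CTCF, cohesin and DNA methylation, and the resulting set of surface proteins lets sister dendrites recognise and avoid one another. The C-type genes, at the end of the Pcdha and Pcdhg clusters, are used more broadly across neurons. Non-clustered protocadherins include the δ1 members (Pcdh1, Pcdh7, Pcdh9 and Pcdh11x) and the δ2 members (Pcdh8, Pcdh10, Pcdh17, Pcdh18 and Pcdh19), which mark particular regions and layers and act in adhesion, axon outgrowth and synapse formation.

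In the GRCm38 build, the analysed Pcdha genes run from position 36930184 to 37187661 of chromosome 18, the Pcdhb genes from 37294812 to 37524479, and the Pcdhg genes from 37661793 to 37841873. Because of the shared constant exons, 40.1% to 51.4% of the exonic bases of a Pcdha gene, and 33.2% to 68.5% of those of a Pcdhg gene, belonged to no other gene on the same strand. For Pcdhb genes this share was 90.3% to 100%, and for the non-clustered genes it was 100%. Pcdha1 had 12 to 44 reads per mouse, so reads in the constant exons were not credited to every gene of the cluster. The clustered values therefore follow mainly the first exon, and hence promoter use, rather than the whole transcript. How reads were assigned to strands is not given in the sources used here. This matters for Pcdhga10, whose exonic bases are all covered by other genes when strand is ignored, and for other members with long antisense overlaps. Antisense transcripts share 2486 bases with Pcdha11 (Gm10545), 2235 with Pcdh7 (4932441J04Rik), 1927 with Pcdhb12 (Gm37446), 1559 with Pcdhgc3 (BC037039) and 1381 with Pcdhga11 (Gm26672). For these members, reads of the gene and of its antisense partner cannot be told apart unless strand was counted.

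Libraries held 20495605 to 24881257 reads on listed genes. The lowest count of any protocadherin was 12 reads (Pcdha1) and the highest 8676, while 3 reads corresponded to 0.127 to 0.143 CPM (counts scaled to the library size). Phf21b, the targeted gene, measured 2.15, 3.57 and 3.87 CPM in Phf21bΔ4/Δ4 replicates 2, 3 and 6 against 6.5, 5.23 and 6.47 CPM in the controls. The genotypes did not overlap, but the change, -0.96 on the log2 scale, missed the threshold (limma, FDR 0.141). The count covers the whole gene, not the deleted exon alone. The hippocampal neuron markers were present in every library, but neighbouring tissue and subfield markers were uneven. Summed medial habenula markers, of which 14 of 14 were listed, spanned 46.2 to 73.8 CPM in Phf21bΔ4/Δ4 and 344 to 439 CPM in Phf21b+/+ mice. Choroid plexus markers summed to 23488 CPM in Phf21b+/+ replicate 7 and to at most 1785 CPM in any other mouse. Phf21bΔ4/Δ4 replicate 6 stood apart from its genotype in dentate granule cell markers, with 673 CPM against 386 and 362 CPM in replicates 2 and 3. Phf21bΔ4/Δ4 replicate 3 had the lowest sum of CA2 and CA3 markers, 615 CPM against 772 to 928 CPM elsewhere. In whole tissue, fewer cells of a type and less RNA per cell cannot be told apart.

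Most protocadherins had higher estimates in Phf21bΔ4/Δ4 hippocampus, but only Pcdhga2 passed the test. A gene was called changed at a false discovery rate (FDR) under 0.1, adjusted over all 14477 genes, together with a fold change above 1.3. By this rule 1 of 64 protocadherins was higher and 0 were lower, beside 0.553% of all genes called higher and 0.663% called lower. At an unadjusted p under 0.05, 19 protocadherins were higher and 0 lower, beside 23.6% of all genes in either direction and 11.6% higher. The 3 Phf21bΔ4/Δ4 values lay entirely above the 3 Phf21b+/+ values for 24 members and entirely below them for 0, beside 15.0% and 16.0% of all genes (31.0% together). The log2 fold change was above 0 for 56 of 64 members, beside 47.6% of all genes. Its median was 0.29, whereas the median over all genes was -0.02.

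**Figure D1:**
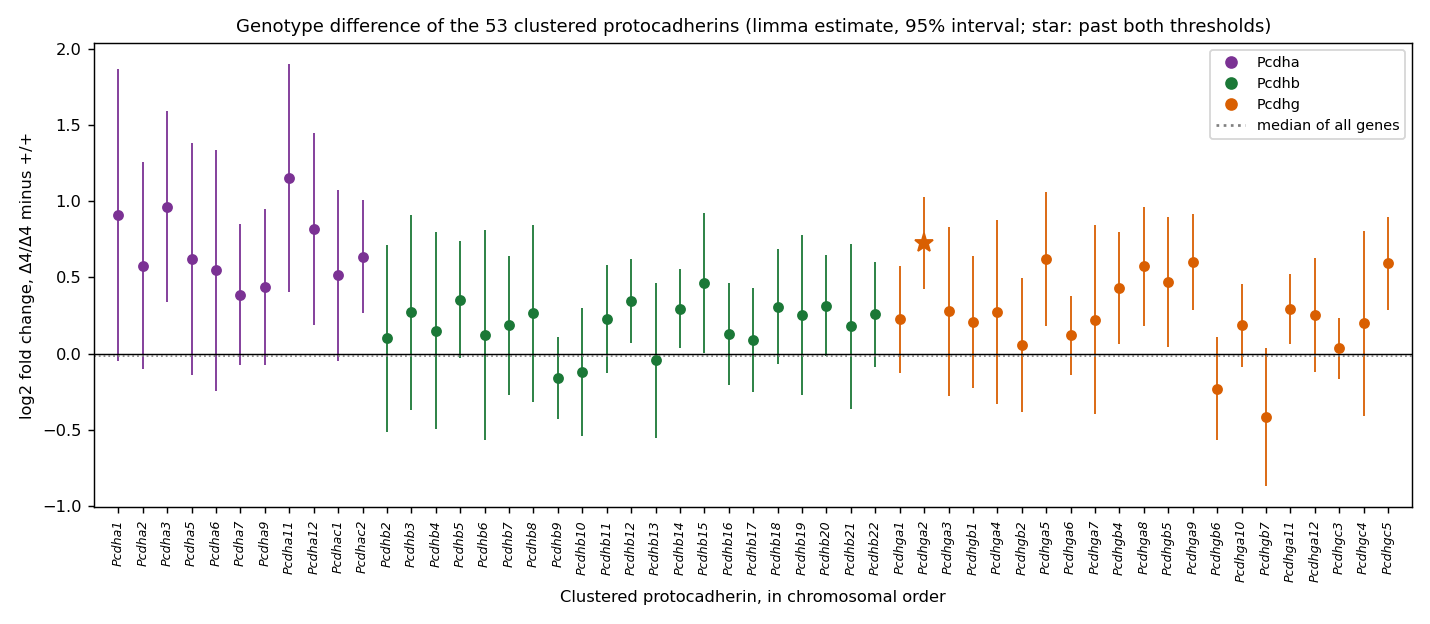
Log2 fold change (Phf21bΔ4/Δ4 minus Phf21b+/+) of each of the 53 clustered protocadherins, in chromosomal order within Pcdha, Pcdhb and Pcdhg (Pcdha11 placed by its number), with the 95% confidence interval from limma. All 11 Pcdha estimates lie above 0, with 3 of 21 Pcdhb and 2 of 21 Pcdhg estimates below it, and Pcdhga2 is the gene that passed the test.

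The shift was unequal between the clusters. Summed over its genes, Pcdha measured 97.0, 111 and 77.9 CPM in Phf21bΔ4/Δ4 replicates 2, 3 and 6, and 67.0, 51.1 and 62.6 CPM in Phf21b+/+ replicates 5, 7 and 8. Pcdhg summed to 405, 389 and 355 CPM against 323, 292 and 330 CPM. In both of these clusters every Phf21bΔ4/Δ4 mouse was above every Phf21b+/+ mouse. Pcdhb did not separate the genotypes, with sums of 212, 259 and 252 CPM against 227, 200 and 205 CPM. The non-clustered genes summed to 1979, 1929 and 1599 CPM against 1494, 1266 and 1441 CPM, again without overlap. The ratio of mean sums was 1.58 for Pcdha, 1.14 for Pcdhb, 1.22 for Pcdhg and 1.31 for the non-clustered genes, while the sum over all listed genes had a ratio of 1.08 on this scale.

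**Figure D2:**
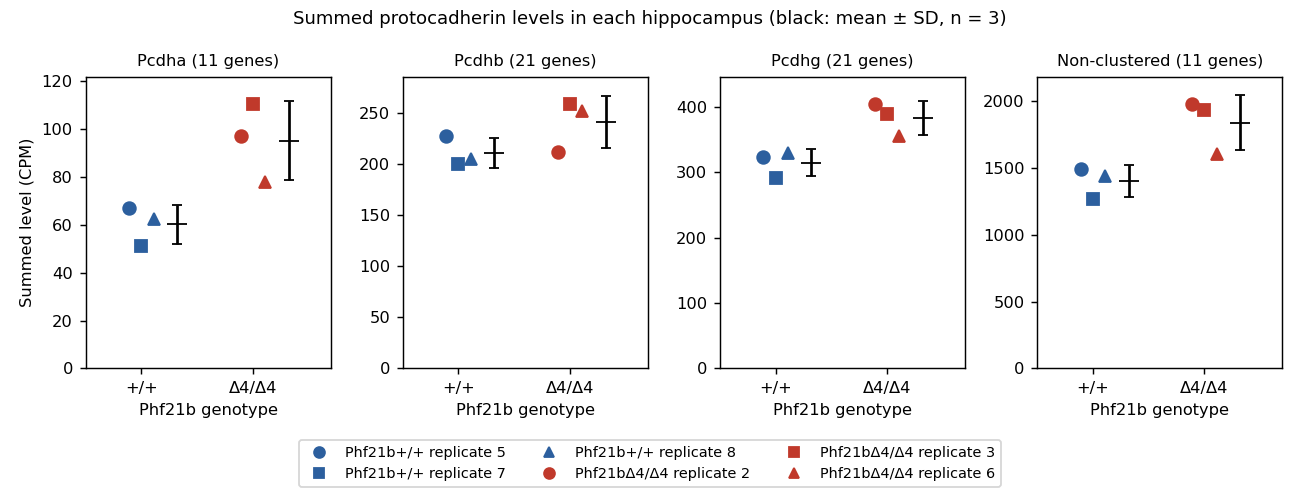
Summed CPM of the Pcdha, Pcdhb, Pcdhg and non-clustered protocadherins, 1 point per mouse, with the mean and SD of the 3 mice of each genotype. The genotypes do not overlap for Pcdha, Pcdhg and the non-clustered genes, and overlap for Pcdhb, where Phf21bΔ4/Δ4 replicate 2 (212 CPM) lies below Phf21b+/+ replicate 5 (227 CPM).

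Among the Pcdhg genes, Pcdhga2 rose in Phf21bΔ4/Δ4 mice. It encodes an A-type γ-protocadherin and its gene spans positions 37668953 to 37841870 of chromosome 18, its variable exon lying at the upstream end. It measured 10.5, 10.4 and 11.2 CPM in Phf21bΔ4/Δ4 replicates 2, 3 and 6, and 6.83, 5.74 and 6.92 CPM in Phf21b+/+ replicates 5, 7 and 8. These values rest on 218 to 258 and 136 to 154 reads. All Phf21bΔ4/Δ4 mice were above all Phf21b+/+ mice, and the spread within each genotype was small. The log2 fold change was 0.73 (SE 0.13), a fold of 1.65, at an FDR of 0.087 (limma). The call was lost, at FDRs of 0.12 to 0.28, when any mouse other than Phf21bΔ4/Δ4 replicate 6 was left out, and the FDR was 0.039 without that mouse.

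The genes on either side of Pcdhga2 in the cluster moved less. Its upstream neighbour Pcdhga1 measured 9.57, 7.81 and 9.87 CPM against 6.93, 7.85 and 8.49 CPM, and its downstream neighbour Pcdhga3 measured 19.9, 18.1 and 24.1 CPM against 22.3, 12.2 and 18.1 CPM. Both overlapped between genotypes, with log2 fold changes of 0.23 (95% interval -0.13 to 0.58) and 0.28 (-0.28 to 0.83). The log2 ratio of Pcdhga2 to Pcdhga1 was 0.50 higher in Phf21bΔ4/Δ4 mice (exact two-sided permutation test, p = 0.1, the smallest that 3 against 3 mice allows), and that to Pcdhga3 was 0.45 higher (exact p = 0.2). These neighbours were chosen after their values were seen.

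The other variable Pcdhg genes leaned the same way without passing the test. All 12 A-type genes had log2 fold changes above 0, with a median of 0.28, and 6 of them did not overlap between genotypes, all higher, beside 15.0% of all genes. Pcdhga9, another A-type gene, measured 10.9, 9.48 and 8.96 CPM in Phf21bΔ4/Δ4 and 6.03, 6.96 and 6.34 CPM in Phf21b+/+ mice. Its genotypes did not overlap, and its log2 fold change of 0.60 (SE 0.13) had an FDR of 0.13. Summed over the A-type genes, the level was 155, 156 and 153 CPM against 127, 110 and 128 CPM, so the 3 Phf21bΔ4/Δ4 mice were close to one another. The 6 B-type genes had a median of 0.13 and were split. Pcdhgb7 measured 8.10, 5.38 and 7.44 CPM against 8.02, 9.50 and 10.2 CPM, a log2 fold change of -0.42 (FDR 0.23), and Pcdhgb6 measured 12.9, 12.8 and 14.4 CPM against 13.0, 16.9 and 17.5 CPM, a log2 fold change of -0.23 (FDR 0.34). Both genes overlapped between genotypes, and they were singled out after their values were seen. The B-type sums, 53.0, 50.5 and 47.4 CPM against 46.1, 48.8 and 54.5 CPM, overlapped.

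The C-type genes included the most abundant members of the Pcdha and Pcdhg clusters. Pcdhgc5, which lies last in the Pcdhg cluster, measured 103, 93.5 and 79.3 CPM in Phf21bΔ4/Δ4 and 63.6, 53.3 and 65.8 CPM in Phf21b+/+ mice. The genotypes did not overlap, and the log2 fold change of 0.59 (SE 0.13, 95% interval 0.29 to 0.90) had an FDR of 0.13. Pcdhgc3, the gene upstream of it among the C-types, measured 78.4, 72.5 and 66.6 CPM against 73.8, 68.2 and 70.0 CPM. These values overlapped, and the log2 fold change was 0.03 with a 95% interval of -0.17 to 0.23. Pcdhgc4, which lies between the pair, measured 15.6, 16.8 and 8.61 CPM against 12.2, 11.4 and 10.8 CPM. In Pcdhgc4, Phf21bΔ4/Δ4 replicate 6 was the lowest of all 6 mice and replicates 2 and 3 the highest.

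The ratio of Pcdhgc5 to Pcdhgc3 differed between the genotypes, in a pair singled out after its values were seen. The log2 ratio of Pcdhgc5 to Pcdhgc3 was 0.40, 0.37 and 0.25 in Phf21bΔ4/Δ4 replicates 2, 3 and 6, and -0.21, -0.36 and -0.09 in Phf21b+/+ replicates 5, 7 and 8. All Phf21bΔ4/Δ4 mice had more Pcdhgc5 than Pcdhgc3 CPM and all Phf21b+/+ mice had less, but this order holds only for CPM. Per kilobase of unshared exon, Pcdhgc3 was above Pcdhgc5 in all 6 mice. The mean difference in the log2 ratio was 0.56 (exact two-sided permutation test, p = 0.1, the smallest possible here). For the C-type pair of the other cluster, Pcdhac2 to Pcdhac1, it was 0.12 (exact p = 0.8). Of the Pcdhg total, Pcdhgc5 made up 23.96% ± 1.56 in Phf21bΔ4/Δ4 and 19.3% ± 0.899 in Phf21b+/+ animals (mean ± SD of 3), whereas Pcdhgc3 made up 18.9% ± 0.389 and 22.5% ± 1.12. Together the C-type genes held 46.4% ± 2.63 and 45.5% ± 0.908 of the cluster, a difference within the spread between mice.

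The Pcdha cluster had the highest median among the clusters, and its 11 log2 fold changes lay between 0.39 and 1.15 with a median of 0.62. Pcdha1 (estimate 0.91), counted here and in the 56 of 64 above, reached 1 CPM only in Phf21bΔ4/Δ4 replicates 2 and 3 (1.86 and 1.57 CPM). The filter of at least 1 CPM in at least 2 samples may thus have kept Pcdha1 through the genotype where it was higher. For 7 of the 11 genes every Phf21bΔ4/Δ4 value was above every Phf21b+/+ value, beside 15.0% of all genes. An unadjusted p under 0.05 was found for 4, all higher, beside 11.6% of all genes, and 0 were called. Pcdhac2, a C-type gene that supplied more than any other Pcdha gene, measured 55.7, 55.3 and 41.9 CPM in Phf21bΔ4/Δ4 and 36.3, 27.5 and 34.5 CPM in Phf21b+/+ mice. All Phf21bΔ4/Δ4 values were above the Phf21b+/+ values, and the log2 fold change was 0.64 (SE 0.16, FDR 0.13). The other C-type gene of the cluster, Pcdhac1, measured 3.71, 5.81 and 4.39 CPM against 3.46, 2.57 and 3.64 CPM, a log2 fold change of 0.51 (FDR 0.24) with no overlap. Pcdhac2 held 53.7% ± 3.69 of the Pcdha total in Phf21bΔ4/Δ4 and 54.3% ± 0.750 in Phf21b+/+ mice, a difference within the spread between mice.

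Of the alternate Pcdha genes, which neurons choose in small numbers, Pcdha11 measured 3.84, 6.19 and 4.87 CPM against 2.99, 2.36 and 1.48 CPM. Pcdha3 measured 4.05, 4.57 and 2.74 CPM against 2.18, 1.98 and 1.57 CPM. Neither gene overlapped between genotypes. Their log2 fold changes of 1.15 (SE 0.31) and 0.96 (SE 0.26) each had an FDR of 0.14. The symbol Pcdha11 belongs to 2 annotated genes, so it was given no length or position here. Phf21bΔ4/Δ4 replicate 6 was the lowest of its genotype for 9 of the 11 Pcdha genes, and replicate 3 the highest for 8. Over all 14477 genes these counts were 5435 and 4887.

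The Pcdhb genes showed the smallest shift. Their median log2 fold change was 0.22, 18 of 21 were above 0 and 0 were called. The genotypes did not overlap for 5 of 21 (23.8%), all higher, beside 15.0% of all genes. Pcdhb12 measured 13.5, 15.5 and 13.7 CPM in Phf21bΔ4/Δ4 and 12.3, 10.6 and 10.7 CPM in Phf21b+/+ mice, a log2 fold change of 0.34 (FDR 0.17). Pcdhb14 measured 17.9, 19.2 and 15.5 CPM against 14.5, 14.1 and 14.2 CPM, a log2 fold change of 0.29 (FDR 0.18). Pcdhb15 measured 5.23, 7.91 and 5.96 CPM against 4.65, 4.09 and 4.94 CPM, a log2 fold change of 0.46 (FDR 0.21). For these 3 genes, those with the lowest p of the cluster, every Phf21bΔ4/Δ4 mouse was above every Phf21b+/+ mouse. Pcdhb9, Pcdhb10 and Pcdhb13 had estimates below 0, of -0.16, -0.12 and -0.04, and all of them overlapped. Within Phf21bΔ4/Δ4, replicate 2 was the low mouse. The median deviation of the Pcdhb genes from their mean over all mice was -0.21, 0.28 and 0.18 log2 units in Phf21bΔ4/Δ4 replicates 2, 3 and 6, and -0.03, -0.21 and -0.11 in Phf21b+/+ replicates 5, 7 and 8. Replicate 2 thus lay at the level of the lowest control.

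Of the non-clustered genes, 8 of 11 had estimates above 0, beside 47.6% of all genes. The genotypes did not overlap for 3 of 11 (27.3%), all higher, beside 15.0% of all genes. By the test 0 were called, beside 0.553% of all genes called higher and 0.663% called lower. The δ1 member Pcdh1, an adhesion molecule also found in epithelia and vessels, came closest. It lies just downstream of the clusters, at 38185914 to 38212053 of chromosome 18. Pcdh1 measured 328, 300 and 285 CPM in Phf21bΔ4/Δ4 and 200, 155 and 212 CPM in Phf21b+/+ mice. The genotypes did not overlap, and the log2 fold change of 0.70 (SE 0.13, 95% interval 0.38 to 1.01) had an FDR of 0.101. Pcdh1 held 16.6% ± 1.14 of the non-clustered total in Phf21bΔ4/Δ4 and 13.5% ± 1.20 in Phf21b+/+ mice.

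The other δ1 genes did not separate the genotypes. Pcdh9, which helps organise sensory cortical layers and is among the most abundant members, measured 308, 410 and 307 CPM against 308, 245 and 277 CPM, a log2 fold change of 0.30 (FDR 0.26). Pcdh7 measured 230, 258 and 122 CPM against 141, 118 and 122 CPM, a log2 fold change of 0.61 (FDR 0.23). Its antisense transcript 4932441J04Rik had the same estimate, 0.61 (FDR 0.25), and their reads cannot be told apart where they overlap unless strand was counted. Pcdh11x, on the X chromosome, measured 42.2, 43.0 and 15.5 CPM against 35.1, 24.4 and 33.5 CPM, a log2 fold change of -0.01. In Pcdh7 and Pcdh11x, Phf21bΔ4/Δ4 replicates 2 and 3 were above all Phf21b+/+ mice while replicate 6 was among or below them. Without that mouse the Pcdh11x estimate was 0.48 (FDR 0.11).

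**Figure D3:**
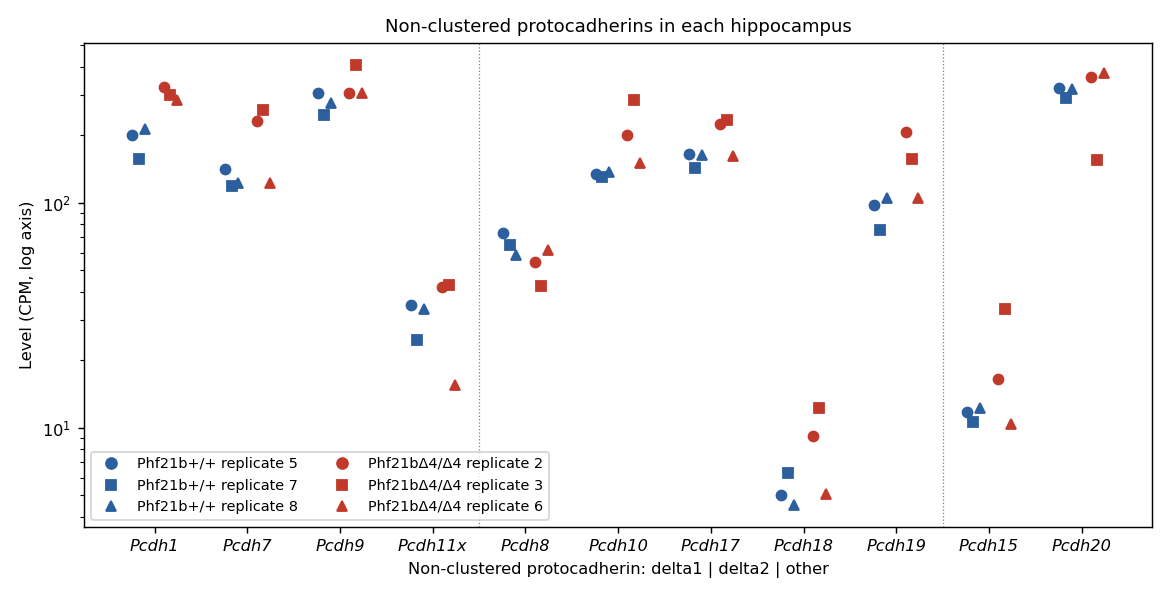
Level in CPM (log axis) of the 11 non-clustered protocadherins, grouped as δ1, δ2 and other, with 1 marker per mouse. Pcdh1, Pcdh10 and Pcdh19 are the 3 genes whose genotypes do not overlap, all higher (27.3%, beside 15.0% of all genes). Phf21bΔ4/Δ4 replicate 6 lies among or below the Phf21b+/+ mice for genes including Pcdh7, Pcdh11x, Pcdh15, Pcdh17 and Pcdh18.

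The δ2 genes behaved in 2 ways. Pcdh19, the X-linked gene mutated in a form of epilepsy with cognitive impairment, measured 206, 157 and 105 CPM in Phf21bΔ4/Δ4 and 97.1, 75.7 and 104 CPM in Phf21b+/+ mice, a log2 fold change of 0.72 (FDR 0.17). Pcdh10, which recruits the actin-regulating WAVE complex and takes part in synapse elimination, measured 200, 286 and 150 CPM against 135, 130 and 136 CPM, a log2 fold change of 0.62 (FDR 0.17). In both genes all Phf21bΔ4/Δ4 mice were above all Phf21b+/+ mice, but in Pcdh19 the lowest of them (105 CPM) was close to the highest control (104 CPM). Pcdh17 measured 224, 232 and 160 CPM against 164, 143 and 162 CPM (log2 fold change 0.38, FDR 0.20), and Pcdh18 measured 9.19, 12.2 and 5.05 CPM against 5.03, 6.29 and 4.54 CPM (0.66, FDR 0.26). Replicate 6 again lay within the Phf21b+/+ range for both. Pcdh8, an activity-induced member that takes part in N-cadherin endocytosis at synapses, went the other way, with 54.4, 42.6 and 61.7 CPM against 72.9, 65.1 and 58.7 CPM. Its log2 fold change was -0.32 (95% interval -0.69 to 0.04, FDR 0.25), and replicate 6 was inside the Phf21b+/+ range.

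In the remaining non-clustered genes Phf21bΔ4/Δ4 replicate 3 stood apart. Pcdh20 measured 360, 154 and 377 CPM in Phf21bΔ4/Δ4 and 324, 293 and 319 CPM in Phf21b+/+ mice, so replicates 2 and 6 were the highest of all and replicate 3 the lowest. Its log2 fold change was -0.18 (FDR 0.76), and 0.24 (FDR 0.31) without replicate 3. Pcdh15, the tip-link protein of hair cells and an Usher syndrome gene, measured 16.4, 33.5 and 10.4 CPM against 11.8, 10.6 and 12.2 CPM, a log2 fold change of 0.63 (FDR 0.35). Here replicate 3 was the highest and replicate 6 the lowest of the 6 mice.

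CREB was a subject of the study, so the RefSeq promoter windows (GRCm38.p6, 250 bases before to 50 after a start) were searched on both strands for its full element, TGACGTCA, and its half-element, TGACG. Windows were found for 9 members, all of them non-clustered. These 9 members had 10 windows. The full element was in 0 of the 10 and in 1.79% of all 32851 windows. The half-element was in 3 of the 10, from 2 of the 9 members, and in 20.8% of all windows. The matching stretches, shown because they are the members' matches in this search, have the half-element in capitals, as CGTCA where it reads on the opposite strand. The first is chr3:45378270-45378299 on the plus strand and the second is chr14:93890714-93890743 on the minus strand.
Pcdh10: ctggctgccgcgTGACGtaactactTGACG
Pcdh9: tggggcctcggtCGTCAcgccctccctctg
A match describes the letters in the window only.

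Levels were compared between genes per kilobase of exonic sequence that belongs to no other gene on the same strand. This scale assumes that strand was counted, which is not given. With strand ignored, the unshared bases would be 1821 rather than 3380 for Pcdhgc3, 1107 rather than 3034 for Pcdhb12, and 0 for Pcdhga10. The order of such genes could then differ. On this scale, in Phf21b+/+ mice, Pcdh20 had 56.8 CPM per kb, Pcdh9 40.8, Pcdh1 21.5, Pcdhgc3 20.9, Pcdh8 14.5 and Pcdhgc5 13.2. Levels spanned 0.304 to 10.8 CPM per kb in Pcdha (10 genes with a length), 0.985 to 6.40 in Pcdhb, 1.06 to 20.9 in Pcdhg and 0.486 to 56.8 in the non-clustered genes, with medians of 1.28, 2.21, 3.30 and 11.97. The 3 C-type genes Pcdhgc3, Pcdhgc5 and Pcdhac2 were above all other clustered genes, and Pcdha1 and Pcdh15 were the lowest. In Phf21bΔ4/Δ4 mice Pcdh1 had 34.6 CPM per kb, against 21.4 for Pcdhgc3 and 20.0 for Pcdhgc5. If strand was counted, Pcdh1 and Pcdhgc3 were neighbours in Phf21b+/+ mice and differed there by less than the spread of Pcdh1 between mice.

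**Figure D4:**
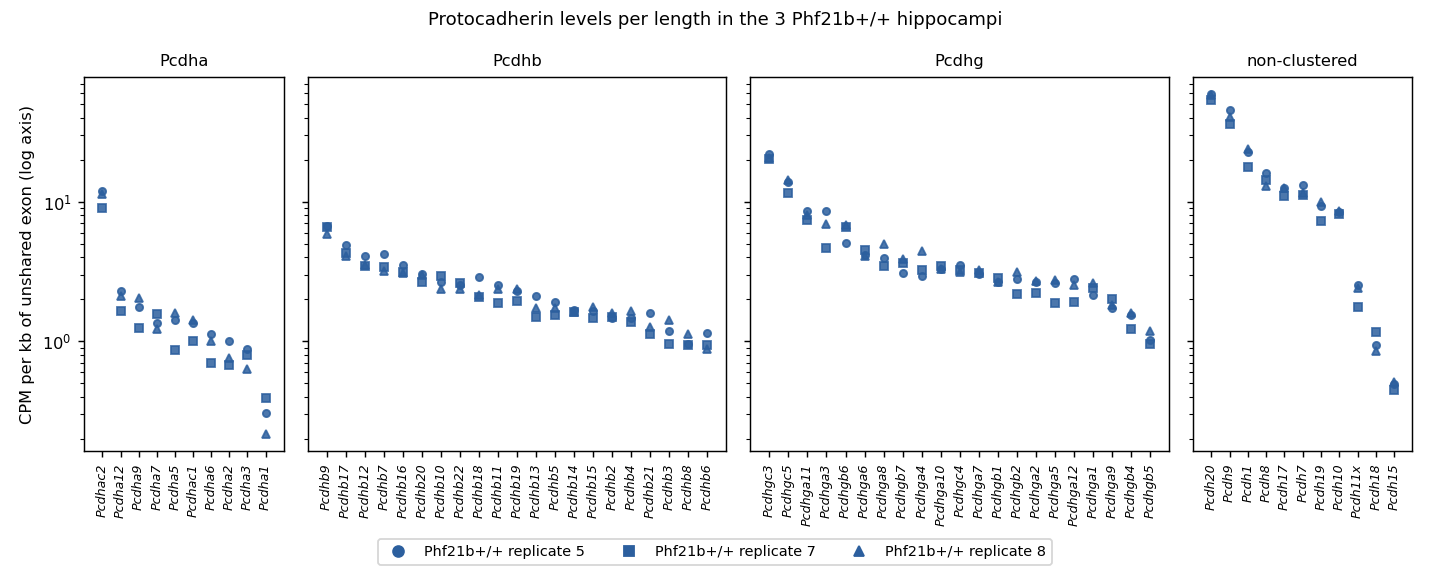
Level in CPM per kilobase of exonic sequence unshared on the same strand (log axis), for the protocadherins with a length. Each of the 3 Phf21b+/+ mice has 1 marker, and genes are in falling order within each group. Pcdh20, Pcdh9, Pcdh1 and Pcdhgc3 lead, with means of 56.8, 40.8, 21.5 and 20.9, and Pcdha1 is the lowest with a mean of 0.304.

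Markers of hippocampal subfields and of adjoining tissue moved with genotype alongside the protocadherins. The counts of calls below stand beside 0.553% of all genes called higher and 0.663% called lower. CA1 pyramidal markers, 9 of 9 listed, summed to 1068 to 1262 CPM in Phf21bΔ4/Δ4 and 445 to 493 CPM in Phf21b+/+ mice, with 4 called higher (Fibcd1, Mpped1, Gpr161 and Htr1a). The study had already reported these 4 genes as higher in the same libraries, so their calls are not independent support. Dentate granule cell markers, 9 of 9 listed, summed to 362 to 673 CPM against 825 to 928 CPM, with 2 called lower. Interneuron markers, 7 of 7 listed, summed to 688 to 830 CPM against 468 to 531 CPM, with Gad2 called higher. Medial habenula markers had 13 of 14 called lower, and Pou4f1, Irx2, Chat and Slc18a3 had at most 3 reads in every Phf21bΔ4/Δ4 mouse. These genes, with Chrna3, Chrnb3 and Chrnb4, were below 1 CPM in every Phf21bΔ4/Δ4 mouse. They could pass the filter of at least 1 CPM in at least 2 samples only through the controls, so their direction was fixed in advance. The study had already reported Chrna3, Pou4f1, Irx2, Chat and Slc18a3 as lower in these libraries. Thalamic and lateral habenular markers, 11 of 12 listed, summed to 344 to 558 CPM against 563 to 849 CPM, with 3 called lower. Endothelial and pericyte markers, 9 of 9 listed, summed to 274 to 402 CPM against 187 to 262 CPM with 0 called. The lists for CA2 and CA3 neurons, microglia, the oligodendrocyte lineage, leptomeninges and hippocampal neurons in general had 0 called, while Aqp4 of the astrocyte list and Otx2 of the choroid plexus list were lower. Leaving out Phf21b+/+ replicate 7, the mouse with high choroid plexus markers, left 0 protocadherins called and a log2 fold change of 0.64 for Pcdhga2 (FDR 0.24) and 0.56 for Pcdh1 (FDR 0.24). The part of these tissue differences in the protocadherin values was not tested.

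**Figure D5:**
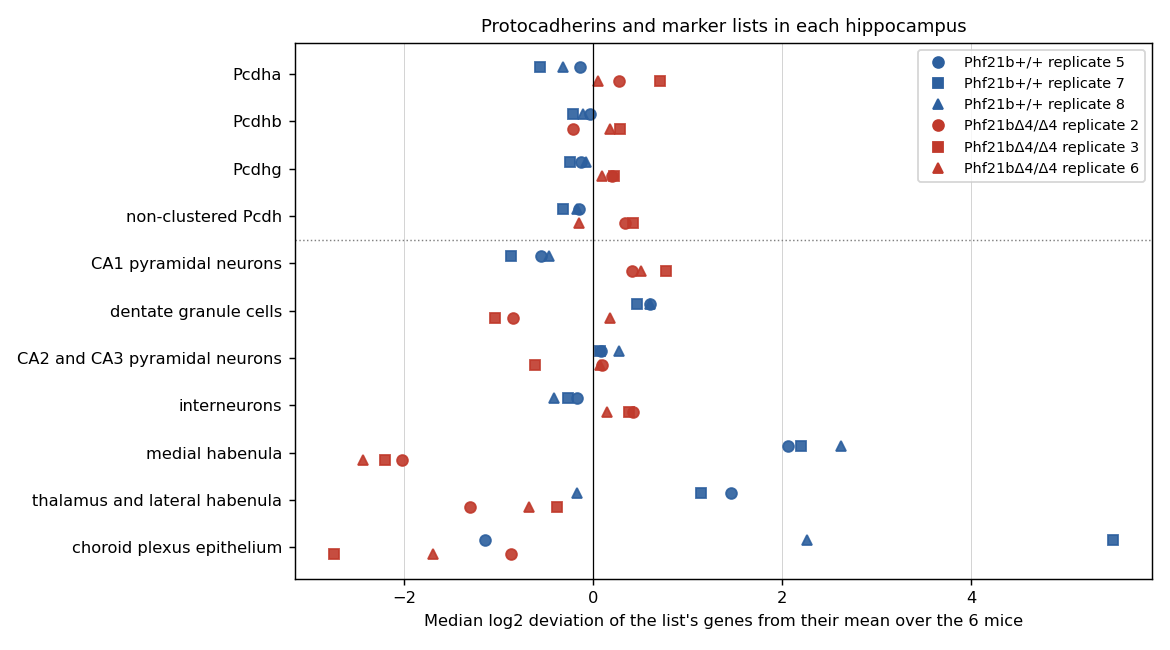
Median log2 deviation of each list's genes from their mean over the 6 mice, 1 marker per mouse, for the protocadherin groups (above the dotted line) and marker lists. Pcdha, Pcdhg, CA1 and interneuron lists are higher in all Phf21bΔ4/Δ4 mice. The dentate, medial habenula, and thalamic and lateral habenular lists are lower in all of them. Phf21bΔ4/Δ4 replicate 6 is the nearest of its genotype to the Phf21b+/+ mice for the Pcdha, Pcdhg, non-clustered, dentate and interneuron lists.

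The number of calls depended on Phf21bΔ4/Δ4 replicate 6. It was the lowest mouse of its genotype for 34 of the 64 members, and for 9 of the 11 non-clustered ones, beside 5435 of all 14477 genes. Without it, 22 protocadherins were called higher and 1 lower (Pcdh8), beside 10.3% and 9.29% of all genes. Those called then included Pcdh1, Pcdh7, Pcdh10, Pcdh15, Pcdh17, Pcdh18, Pcdh19, Pcdhgc5, Pcdhac2, Pcdha3 and Pcdha11. Leaving out any other single mouse left 0 called.

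Among genes that act with the protocadherins, none of the regulators or partners passed the test. Of 22 listed regulators of the clustered promoters (CTCF, cohesin, DNA methylation and repressor genes), 21 were measured and 0 were called, with a median log2 fold change of 0.02. Ctcf measured 87.2, 83.3 and 89.0 CPM against 89.8, 85.2 and 87.0 CPM. The cohesin subunit Stag1 measured 72.1, 80.0 and 98.7 CPM in Phf21bΔ4/Δ4 and 124, 114 and 130 CPM in Phf21b+/+ mice, which did not overlap, and its log2 fold change of -0.56 had an FDR of 0.13. Of 27 partner and signalling genes, 0 were called, 23 (85.2%) had estimates above 0, beside 47.6% of all genes, and the median was 0.17. Their sums of 5899 to 6437 CPM in Phf21bΔ4/Δ4 and 4790 to 5563 CPM in Phf21b+/+ mice did not overlap. Singly, 9 of 27 (33.3%) did not overlap with Phf21bΔ4/Δ4 higher, beside 15.0% of all genes, and 8 were higher at an unadjusted p under 0.05, beside 11.6%. The lowest p-values there belonged to the receptor tyrosine kinase Ret (-1.10, FDR 0.13), the postsynaptic adhesion genes Nlgn1 (0.50, FDR 0.13) and Nlgn2 (0.70, FDR 0.14), and the WAVE complex gene Cyfip2 (0.48, FDR 0.14).

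Elsewhere in the cadherin superfamily, 35 genes were listed with a median log2 fold change of -0.05, and 17 were above 0. Their sums of 3407 to 4499 CPM in Phf21bΔ4/Δ4 and 2840 to 3351 CPM in Phf21b+/+ mice did not overlap, a ratio of mean sums of 1.26. Abundant genes weigh most in such a sum. Mean levels were 1352 against 933 CPM for Clstn1, 487 against 314 for Clstn3 and 331 against 168 for Celsr2. The estimate was below 0 for 18 of the 35 genes, so the sum does not describe the list as a whole. Singly, 9 (25.7%) did not overlap with Phf21bΔ4/Δ4 higher and 7 with it lower, beside 15.0% and 16.0% of all genes. Of the lower ones, Cdh1, Cdh3 and Cdhr4 were below 1 CPM in every Phf21bΔ4/Δ4 mouse. Cdh26 was below it in replicates 2 and 3 (0.51 and 0.10 CPM). The filter of at least 1 CPM in at least 2 samples could keep these genes only through the controls, so their direction carries no weight. The test called 2 higher and 1 lower, beside 0.553% and 0.663% of all genes. The type II classical cadherins Cdh10 and Cdh11 rose, Cdh10 from 55.4, 53.3 and 58.0 CPM in Phf21b+/+ to 77.6, 78.1 and 82.5 CPM in Phf21bΔ4/Δ4 mice (log2 fold change 0.51, FDR 0.062), and Cdh11 from 153, 145 and 148 to 215, 194 and 202 CPM (0.45, FDR 0.072). Cdh3 fell (FDR 0.067). The controls held 27, 361 and 52 Cdh3 reads (replicates 5, 7 and 8), whereas every Phf21bΔ4/Δ4 library had 1. The highest of these was in the mouse with the high choroid plexus markers.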

How the data were processed

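RNA-seq libraries (TruSeq Total RNA, Ribo-Zero Gold) came from the hippocampus of 6 mice. The authors trimmed reads with Trimmomatic 0.39, aligned them with STAR 2.7.3a to GRCm38, counted them per gene with featureCounts (Subread 1.6.4), kept genes with at least 1 CPM in at least 2 samples, and deposited log2 CPM values scaled by edgeR's effective library sizes. The deposited log2 values gave whole reads for 100% of entries (tolerance 0.1, mean prior count 0.1). Linear CPM was taken from the log2 values themselves, by undoing the log and subtracting the lowest value of the matrix. The log2 values were fitted with limma 3.58.1 (R 4.3.3, lmFit and eBayes with a trend), with Benjamini-Hochberg adjustment over 14477 genes. Voom on the recovered reads called 131 genes, and the main test called 176. Exons came from a GENCODE release of the same build that is not the authors' release, and 98.8% of symbols matched. Values are given for members past the test, the 3 lowest p-values of each group, the C-types and the non-clustered genes. Members and lists were chosen with earlier results of these data known. The script was tested on simulated data. Alternatives covered prior variance, weights, filter, pseudocount, scaling, voom, GC, length, thresholds and each mouse left out.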

Additional observations from a re-analysis of the deposited data

How the results depend on the processing

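With 3 mice per genotype, the number called depended on single mice. Leaving out each mouse in turn gave 0 to 23 protocadherins called, of which 0 to 15 were clustered and 0 to 8 non-clustered. The same fits gave median log2 fold changes of 0.42 to 0.78 for Pcdha, 0.12 to 0.32 for Pcdhb, 0.22 to 0.39 for Pcdhg and 0.28 to 0.74 for the non-clustered genes. Weighting the mice by their quality (arrayWeights) called 22, 16 clustered and 6 non-clustered and all higher, but it also called 10.2% of all genes higher and 14.3% lower. It moved the Pcdhb median to -0.0004 and left 48 of 64 members above 0 in place of 56. Quantile normalization called 2 clustered genes and moved the Pcdhg median to 0.39. A pseudocount of 1 or 0.1, median centring and the length correction called 2 genes each, of which 1, Pcdh1, was non-clustered. An FDR under 0.05 and a filter at a mean log2 CPM of 1 called 0.

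With arrayWeights 10 estimates changed sign: Pcdh11x, Pcdhga4, Pcdhb2, Pcdhb3, Pcdhb4, Pcdhb6, Pcdhb8, Pcdhb17, Pcdhb19 and Pcdhb21. Pcdhb2, Pcdhb4 and Pcdhb6 also did so without Phf21bΔ4/Δ4 replicate 6, and Pcdhgb2 without Phf21bΔ4/Δ4 replicate 2 or Phf21b+/+ replicate 7. Pcdh11x was 0.20 with arrayWeights, 0.021 with quantile normalization, 0.0384 with median centring and 0.0613 with the GC correction, and ranged from -0.26 to 0.48 over the leave-one-out fits. Pcdhgc3 was -0.0326 with quantile normalization, -0.004 with the GC correction and -0.0014 with the length correction, and ranged from -0.0248 to 0.0934. Pcdhb10 was 0.064 with quantile normalization. Pcdhb13 was 0.16 with quantile normalization and 0.0048 with median centring, and ranged from -0.22 to 0.10. Pcdh20 ranged from -0.40 to 0.24. The cause of these changes was not tested. No paired analysis was possible because the sample labels give no litter or other pairing of the mice. Depth limits the Pcdha genes most, where a gene could have 12 reads.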
